A study of Drosophila melanogaster with 8 samples.

Results

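The replication-independent histone genes of Drosophila melanogaster are 5 single-copy genes, His2Av, His3.3A, His3.3B, His4r and BigH1. They were listed by symbol and found by FlyBase identifier among 17445 counted features, where a feature is 1 FlyBase gene identifier. All 5 were present. His2Av, His3.3A, His3.3B and His4r encode core histones and BigH1 a linker histone. The family was chosen by the read counts of these same mutant and control libraries, in which His2Av and His3.3A were lower in mutants, so the differences between genotypes are given as a description, and counts of calls among them are read as no support.

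RNA was taken from whole larvae in the middle of the second instar, 25 larvae to a sample, after 60 hours of growth at 25 °C on yeast paste. The 4 mutant libraries (replicates 1, 2, 3 and 6) had the genotype w[1118]; Ldh[16/17], a pair of mutant alleles of lactate dehydrogenase, the enzyme that interconverts pyruvate and lactate. The 4 control libraries (replicates 1, 2, 5 and 6) had the genotype w[1118]; Ldh[precise], the usual fly label for an excision that left the gene intact, so both groups shared the w[1118] background. Nothing in the labels tells whether libraries of one genotype came from separate cultures, and the spread between libraries may be partly technical.

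DNA in the nucleus is wrapped around octamers of the core histones H2A, H2B, H3 and H4 and bound between them by the linker histone H1. Most histone protein is made during S phase from a cluster of repeated genes whose mRNAs end in a stem-loop and carry no poly(A) tail. The replication-independent genes lie outside that cluster, have introns and polyadenylated mRNAs, and supply histones at any time of the cell cycle. In the fly, His2Av encodes the only H2A variant, which does the work of both H2A.Z and H2A.X of mammals. His3.3A and His3.3B encode the same H3.3 protein, which replaces H3 at transcribed genes, and His4r encodes an H4 identical in protein to that of the cluster. BigH1 is the linker histone of the early embryo and the germ line.

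Libraries held 371700 to 560865 reads in features, which were only 1.24% to 1.62% of all counts in a file. The rest were counted for no feature. The expression filter passed 2589 features. Features with at least 1 exon base opposite an exon on the other strand were 26.7% of those placed in the annotation and held 94.6% of the feature reads. How the counting treated strand was not given in the sources used here, so the reads of a feature need not be those of its own mRNA, and the gene on the other strand, where at least 50 bases of exon are shared, is given with each histone gene and each tested gene that is named. Ldh, the mutated gene, had 0 reads in every mutant library and 1 to 5 in each control library. Pairs of mutant libraries that included replicate 3 differed most, with a chi-square of 7.01 to 10.5 for each degree of freedom. Mutant replicates 1 and 6 gave 6.35, 1 and 2 gave 5.36, and 2 and 6 gave 2.66. Control pairs gave 1.63 to 2.83. Values are also given without mutant replicate 3. Marker lists for a whole larva were read unevenly. Summed reads per library were 562 to 801 in mutants and 509 to 978 in controls for muscle (5 of 5 genes with reads), 848 to 999 and 852 to 1148 for the nervous system (4 of 4, nearly all in elav, opposite arg), 9 to 17 and 10 to 18 for fat body (5 of 6, Fbp1 at 0), 3 to 12 and 3 to 9 for midgut (5 of 5), 16 to 21 and 11 to 33 for hemocytes (3 of 4, eater at 0), and 95 to 104 and 69 to 145 for the germ line (4 of 5, zpg at 0).

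The 5 histone genes took 1014 reads over the 8 libraries, or 0.0279% of all feature reads, and 88.7% of these fell in His2Av and His3.3A. His2Av, His3.3A and His3.3B passed the expression filter, while His4r and BigH1 were nearly unread. In mutants the features of His2Av and His3.3A were lower than in controls, by 28.2% and 22.3% in the fit, with no overlap between the groups, and His3.3B lay between overlapping groups. Nepl3, the only gene on the other strand of a member, stood higher in mutants on average than in controls, with overlapping groups.

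The features of these genes differed widely in their reads, which need not be those of their own mRNAs. Features were compared in CPM (reads scaled to a common library size with TMM factors) per kilobase of annotated exon. Over the 8 libraries the mean was 135.5 for His3.3A, 98.9 for His2Av, 11.97 for His3.3B, 1.85 for His4r and 0.95 for BigH1. Each of the first 3 was above the next in that order in 8 of 8 libraries. His3.3A was only 1.37 times His2Av, and their ranges over libraries overlapped (102.1 to 157.4 against 63.2 to 132.7). His2Av was 8.26 times His3.3B, whose range of 8.96 to 15.3 overlapped with neither that of His2Av nor that of His4r (0 to 3.40). His4r and BigH1 did not differ beyond their spread, with His4r the higher in 5 of 8 libraries.

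His2Av (FBgn0001197) lies on 3R from 26866929 to 26869220 of the BDGP6 assembly, on the plus strand, with 2 annotated transcripts and no exon opposite its own. Its feature had 31, 47, 57 and 46 reads in mutant replicates 1, 2, 3 and 6 and 53, 52, 77 and 60 in control replicates 1, 2, 5 and 6. In CPM these were 77.3, 97.5, 123.3 and 105.1 in mutants and 137.7, 126.8, 138.0 and 162.4 in controls. All 4 mutant libraries were below the lowest control library, replicate 3 at 123.3 CPM being the nearest to it, at 126.8. The means were 100.8 ± 19.0 CPM for mutants and 141.2 ± 15.1 for controls (SD, n = 4 each), with a log2 fold change of -0.48 (SE 0.16). Leaving out single libraries moved it between -0.59 (without mutant replicate 3) and -0.37 (without mutant replicate 1). Fitted only with features that have no exon on the other strand, His2Av stood at -0.34 (SE 0.20). The reads of the feature need not be those of the His2Av mRNA. In whole larvae, fewer cells of a type that expresses a gene and less RNA per cell cannot be told apart either.

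**Figure D1:**
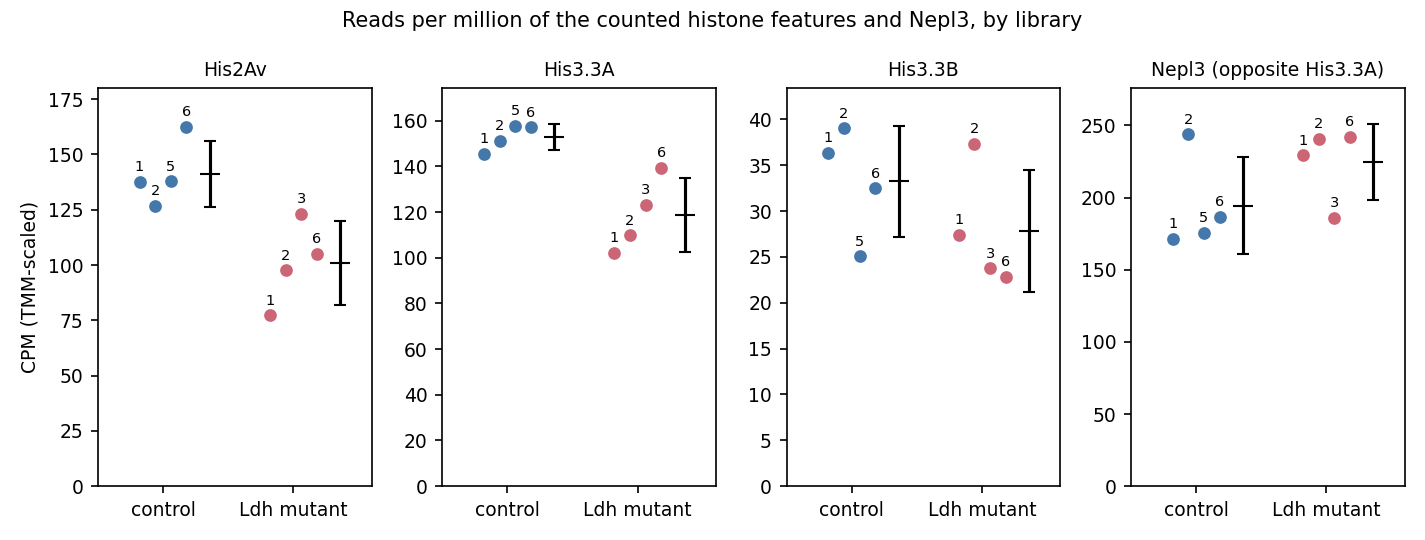
CPM of His2Av, His3.3A, His3.3B and Nepl3 in each library, by genotype, on linear axes from 0. Points are libraries numbered by replicate, and the bars beside them are the mean ± SD (n = 4 each). All mutant points of His2Av and His3.3A lie under the control points, while those of His3.3B and Nepl3 overlap with them.

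His2Av was among the most counted features that have no exon on their other strand, ranking 55 of 12564 by mean CPM. The gene next to it, SPARC, which encodes a collagen-binding glycoprotein of the basement membrane, lies on the other strand and faces it end to end, with 17 bases between the annotated ends. Only the longer of the 2 His2Av transcripts reaches that far; the shorter ends at 26868908. Such a neighbour, ending within 100 bases beyond the feature's own end, was annotated for 30.1% of the 396 features without an opposite exon that passed the filter and for 11.1% of the 12168 that did not. The SPARC feature itself had 1 to 5 reads per library, and ball, the kinase gene 121 bases from the other end of His2Av, had 0 to 1. The part of the facing gene in the His2Av reads was not tested.

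His3.3A (FBgn0014857; 2L, 5055058 to 5056149, plus strand) is the more counted of the H3.3 genes. Its feature had 41, 53, 57 and 61 reads in mutant replicates 1, 2, 3 and 6 and 56, 62, 88 and 58 in control replicates 1, 2, 5 and 6. These were 102.3, 110.0, 123.3 and 139.4 CPM in mutants and 145.5, 151.2, 157.7 and 157.0 in controls. Again every mutant library lay under every control library, the closest pair being mutant replicate 6 and control replicate 1. The controls were tightly grouped, with 152.9 ± 5.73 CPM against 118.7 ± 16.3 in mutants (SD, n = 4 each). The log2 fold change was -0.36 (SE 0.14), and -0.45 to -0.29 with single libraries left out (-0.39 without mutant replicate 3). The nearest genes that do not overlap His3.3A, CG14036 (41 bases away) and Rpn11 (2254 bases away), had 0 to 1 and 0 to 3 reads per library.

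The last 168 of the 1002 exon bases of His3.3A lie opposite Nepl3 (FBgn0031678; 2L, 5055982 to 5058248, minus strand), which is named as a member of the neprilysin-like family of peptidases. The overlap falls in the 3′ untranslated regions of both genes and touches neither coding sequence. Of the 3 His3.3A transcripts, FBtr0333536 covers all 168 bases, and the other 2 share 14 bases with Nepl3. The Nepl3 feature had more reads than His3.3A in every library, with 92, 116, 86 and 106 reads in mutant replicates 1, 2, 3 and 6 and 66, 100, 98 and 69 in control replicates 1, 2, 5 and 6. Its mean was 224.6 ± 26.4 CPM for mutants and 194.4 ± 33.6 for controls (SD, n = 4 each). The log2 fold change of Nepl3, 0.21 (SE 0.15), did not pass the test over all features (edgeR adjusted p = 0.592). Control replicate 2, at 243.9 CPM, was above all 4 mutant libraries, and without it the log2 fold change of Nepl3 was 0.33. Without mutant replicate 3 it was 0.29.

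**Figure D2:**
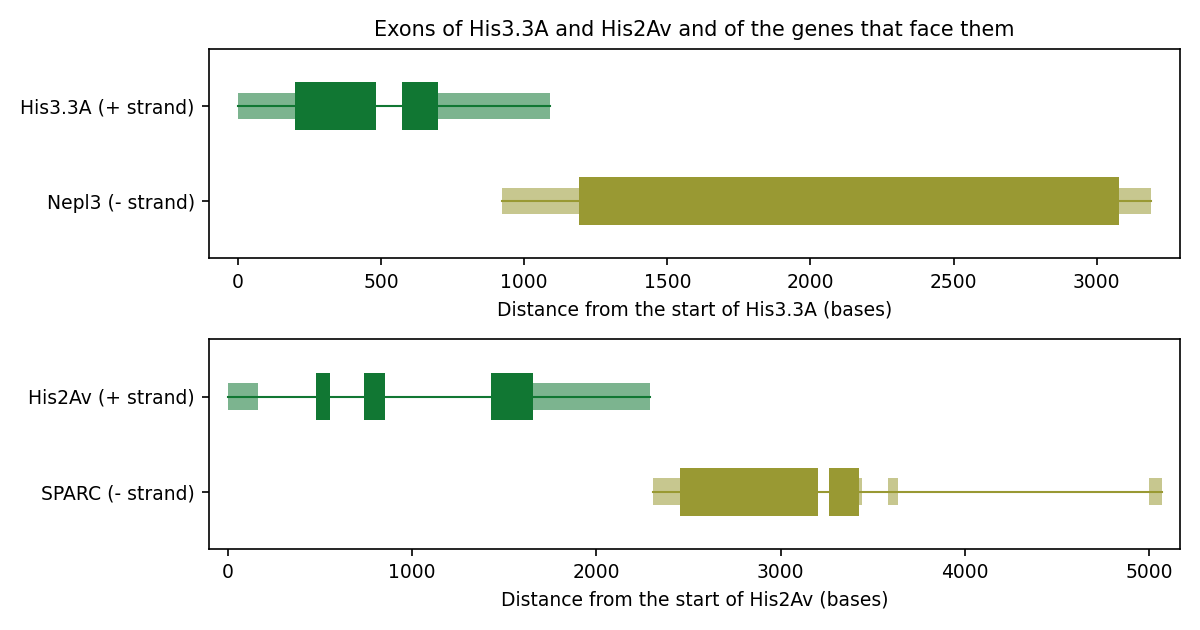
Exons of His3.3A with Nepl3 (top) and of His2Av with SPARC (bottom), drawn to scale as distance in bases from the start of the histone gene, with coding parts as tall dark boxes and untranslated parts as low pale boxes. His3.3A and Nepl3 share 168 bases at their facing ends, and His2Av and SPARC are 17 bases apart.

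The features of His3.3A and Nepl3 thus stood apart in direction. His3.3A made up 30.8%, 31.4%, 39.9% and 36.5% of the reads of the pair in mutant replicates 1, 2, 3 and 6 and 45.9%, 38.3%, 47.3% and 45.7% in control replicates 1, 2, 5 and 6. Only mutant replicate 3 and control replicate 2 crossed. Summed, the pair reached 343.3 ± 30.7 CPM for mutants and 347.3 ± 33.8 for controls (SD, n = 4 each), and the fit of the sum gave a log2 fold change of -0.02 (SE 0.12). If the counting did not use strand, the reads of the shared bases cannot be assigned to either gene. If it used the opposite strand, reads of the His3.3A mRNA over the shared bases would be found in the Nepl3 feature, and those of the Nepl3 mRNA in the His3.3A feature. The lower values of the His3.3A feature would then not be those of its mRNA, nor the higher values of the Nepl3 feature those of the Nepl3 mRNA. Which strand setting was used was not tested.

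His3.3B (FBgn0004828; X, 9152523 to 9156669, minus strand, 4 transcripts) has no exon on its other strand. Its feature had 11, 18, 11 and 10 reads in mutant replicates 1, 2, 3 and 6 and 14, 16, 14 and 12 in control replicates 1, 2, 5 and 6. The means were 27.9 ± 6.63 CPM for mutants and 33.2 ± 6.06 for controls (SD, n = 4 each), and mutant replicate 2 was above 3 of the 4 controls. The log2 fold change was -0.22 (SE 0.27), less than its error, and ran from -0.41 without mutant replicate 2 to -0.14 without mutant replicate 6, with -0.15 without mutant replicate 3. Fitted only with features that have no exon on the other strand, His3.3B stood at -0.08. The genes on either side, Bap111 and Ost48, had at most 5 reads in a library.

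The reads of the His3.3A and His3.3B features were divided between them in nearly the same way in both genotypes. These reads need not be those of the H3.3 mRNAs. His3.3A gave 78.8%, 74.6%, 83.8% and 85.9% of the reads of both genes in mutant replicates 1, 2, 3 and 6 and 80.0%, 79.5%, 86.3% and 82.9% in control replicates 1, 2, 5 and 6. The means were 80.8% ± 5.07 and 82.2% ± 3.12 (SD, n = 4 each), with overlapping groups. The ratio of His2Av to His3.3A reads also overlapped, at 0.849 ± 0.118 for mutants and 0.924 ± 0.0864 for controls (SD, n = 4 each). All 5 genes together reached 249.7 ± 27.5 CPM in mutants (SD, n = 4), from 212.0 to 272.5, and 330.4 ± 18.04 in controls (SD, n = 4), from 319.5 to 357.4.

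His4r and BigH1 could hardly be read. His4r (FBgn0013981; 3R, 14625755 to 14626614, plus strand, no exon on the other strand) had 1, 0, 1 and 0 reads in mutant replicates 1, 2, 3 and 6 and 1, 0, 1 and 1 in control replicates 1, 2, 5 and 6. The ratio of mutant to control reads, scaled by library size, was 0.644, with an exact 95% interval of 0.0538 to 5.62 that covers counting error only. BigH1 (FBgn0038252; 3R, 14663450 to 14664822, plus strand, no exon on the other strand) had 1 read in mutant replicates 1 and 2 and in control replicates 2 and 6, and 0 in the others. Its ratio was 0.966 (95% interval 0.0700 to 13.3). A several-fold difference in either direction was therefore not detectable with so few reads. His4r and BigH1 lie 36835 bases apart on the same chromosome arm, and few reads fell in their nearest genes. Rad17, a checkpoint gene, had 0 reads in all 8 libraries, Meltrin, a metalloprotease gene, 0 to 2, put, a receptor gene of the TGF-beta family, 0 to 3, and CG7886 1 to 7.

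Over all features tested, 82 of 2589 (3.17%) were called at a Benjamini-Hochberg adjusted p under 0.05 by the quasi-likelihood test of edgeR, and none of the 3 histone genes that passed the filter was among them. At an unadjusted p under 0.05 the fit took 2 of the 3, beside 15.4% of all features. DESeq2 called 0 of the 3, beside 74 of 4107 features in all, and limma-voom 0 of the 3, beside 84 of 2589. Without mutant replicate 3, the fit called His2Av, and 164 of 2677 features in all (6.13%). Groups without overlap and lower in mutants were found for 2 of the 3 genes and for 4.98% of all features tested, and a log2 fold change below 0 for 3 of 3 and 48.4%. The median log2 fold change was -0.36 over the 3 genes and 0.01 over all features, with an interquartile range of -0.18 to 0.18. Since the genes were listed with these libraries known, nothing is read from these counts.

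**Figure D3:**
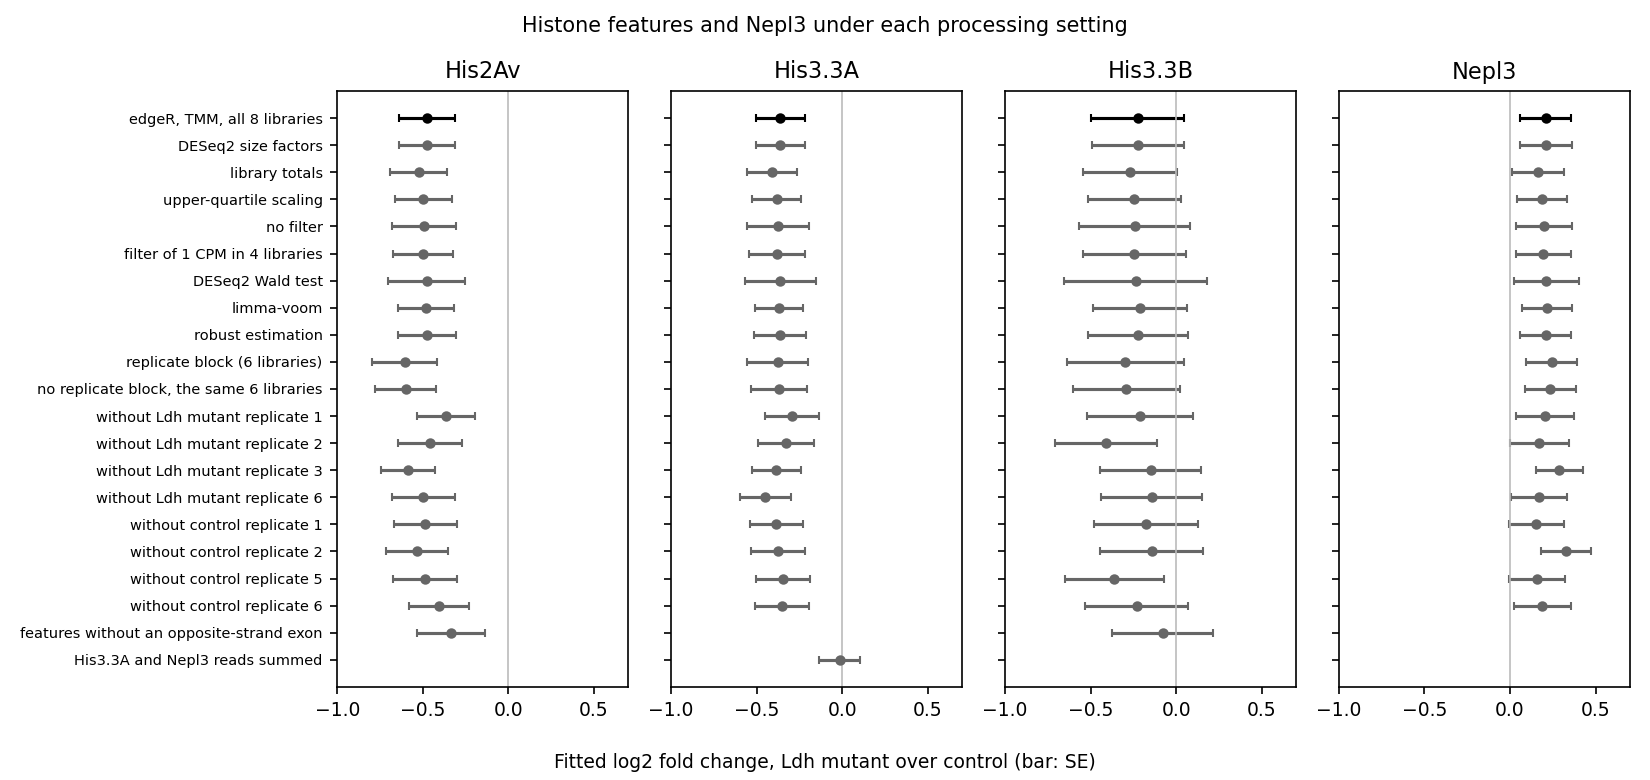
Fitted log2 fold change (mutant over control) of His2Av, His3.3A, His3.3B and Nepl3 under each scaling, filter, tool and set of libraries, with bars of 1 SE. His2Av, His3.3A and His3.3B are below 0 and Nepl3 above 0 in every setting in which they were fitted, and the sum of His3.3A and Nepl3 is at -0.02. All settings use the counts by which the genes were chosen, so the kept sign is no separate support.

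The profiles of other features were set beside those of the histones, using the root-mean-square difference of log2(CPM + 1) over 8 libraries after centring each feature on its own mean. Closest to His2Av were dpr18, a gene of the immunoglobulin superfamily (0.118), Lipt2, named for a lipoyl transferase and opposite asRNA:CR44134 (0.126), and lncRNA:CR44221, opposite kis (0.141), against a median of 0.423 over 2588 features. Closest to His3.3A were CG42233, opposite the remodelling factor gene Acf (0.0937), Lipt2 (0.0996) and asRNA:CR45163, opposite a gene of 3L (0.106), against a median of 0.357. These distances include the gap between genotypes by which the family was chosen, so the distance of 0.157 between His2Av and His3.3A is no separate result. His3.3A came 10 of 2588 in closeness to His2Av, and His2Av 31 of 2588 in closeness to His3.3A. His3.3B was not far from the median distance, at 0.383 from His2Av and 0.345 from His3.3A. Its closest profiles were CG17264, opposite alpha4GT1 (0.118), bcn92, opposite the pentose phosphate gene Pgd (0.127), and CG15653, opposite cpa (0.145). None of these features was called in the comparison of genotypes (lowest edgeR adjusted p = 0.124, for lncRNA:CR44221).

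The replication-dependent genes, which encode the bulk of histone H1, H2A, H2B, H3 and H4, had no reads at all. All 111 features of the cluster were at 0 in all 8 libraries. These copies are nearly identical. Alignments that were not unique made up 21.2% to 33.7% of the counts in a file and went to no feature. The mRNAs of the cluster also carry no poly(A) tail, and why it was unread was not tested. A 0 here therefore does not show that the genes were silent, and no comparison between cluster and single-copy histone genes was possible. Other variants and sperm chromatin proteins were close to unread. The centromeric H3 variant gene cid had 3 reads over the mutants and 2 over the controls, Mst77F 2 and 5, Prtl99C (opposite CG42592) 3 and 0, and the protamine genes ProtA and ProtB 0.

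The genes that place or modify these histones were taken from fixed lists, and none of those that could be tested was called. The lists held 237 features, of which 29 passed the filter, and 27 of the 29 have a base of exon opposite another gene. With edgeR 0 of 29 were called (3.17% of all features tested) and 1 had an unadjusted p under 0.05 (15.4% of all features). DESeq2 called 0 list members, beside 74 of 4107 features in all, and limma-voom 0, beside 84 of 2589. The median log2 fold change in edgeR was -0.05 (0.01 over all features). The member with the unadjusted p was Tip60, the acetyltransferase of the complex that acetylates and exchanges His2Av, opposite tyf and dgt4. Tip60 stood at 84.6 ± 10.02 CPM for mutants and 114.2 ± 22.6 for controls (SD, n = 4 each), with a log2 fold change of -0.41 (SE 0.18) and an adjusted p of 0.264 in edgeR.

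The other tested members of the His2Av exchange list (4 of 17 tested, 0 called) stood above 0, with log2 fold changes of 0.33 (SE 0.23) for MRG15, a chromodomain subunit, 0.10 (SE 0.25) for Act87E, opposite lncRNA:CR45591, and 0.07 (SE 0.14) for MrgBP, opposite CG13751. The exchange factor gene dom itself did not pass the filter. Of the genes of His2Av phosphorylation and DNA damage signalling, 5 of 15 were tested and 0 called. The most counted were wrd (-0.06, SE 0.10), opposite cdm, BRWD3 (0.17, SE 0.19), opposite Rrp5 and asRNA:CR46093, and lok, the checkpoint kinase 2 gene (0.03, SE 0.20), opposite vls. In the H3.3 deposition list 2 of 8 were tested and 0 called, Daxx, opposite KFase, at 0.12 (SE 0.30) and Dek, opposite Psi, at -0.14 (SE 0.22), and Hira and yem were below the filter.

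Among other histone chaperones 5 of 11 were tested and 0 called, led in reads by Fkbp39 (0.12, SE 0.22), Spt6, which reassembles nucleosomes behind RNA polymerase II (-0.32, SE 0.21), and Nap1 (-0.15, SE 0.24), opposite asRNA:CR45926 and CG13562. In the list for histone mRNA processing and the histone locus body 3 of 12 were tested and 0 called. Tested were Nelf-E at -0.19 (SE 0.11), opposite CG43078, wac at 0.14 (SE 0.15), opposite Tudor-SN, and Spt6. A part of wac in histone mRNA processing was not checked. Of the genes of DNA replication 4 of 19 were tested and 0 called. Orc5, opposite GatC and PolG2, was at 0.20 (SE 0.16) and Dp, the partner of E2F, at -0.05 (SE 0.22). PolA1, the catalytic subunit of DNA polymerase alpha and opposite Jhbp16, was at 0.12 (SE 0.19). The nucleosome remodelling list had 3 of 15 tested and 0 called, all 3 below 0, from -0.23 for Chrac-16, opposite regucalcin, to -0.15 for Acf, opposite CG42233. The histone modifying enzymes had 4 of 25 tested and 0 called, with the methyltransferase genes trr, opposite Coa8 (0.12, SE 0.15), and Set1, opposite MED21 (0.22, SE 0.14), and the H3 kinase gene JIL-1 (-0.25, SE 0.16).

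**Figure D4:**
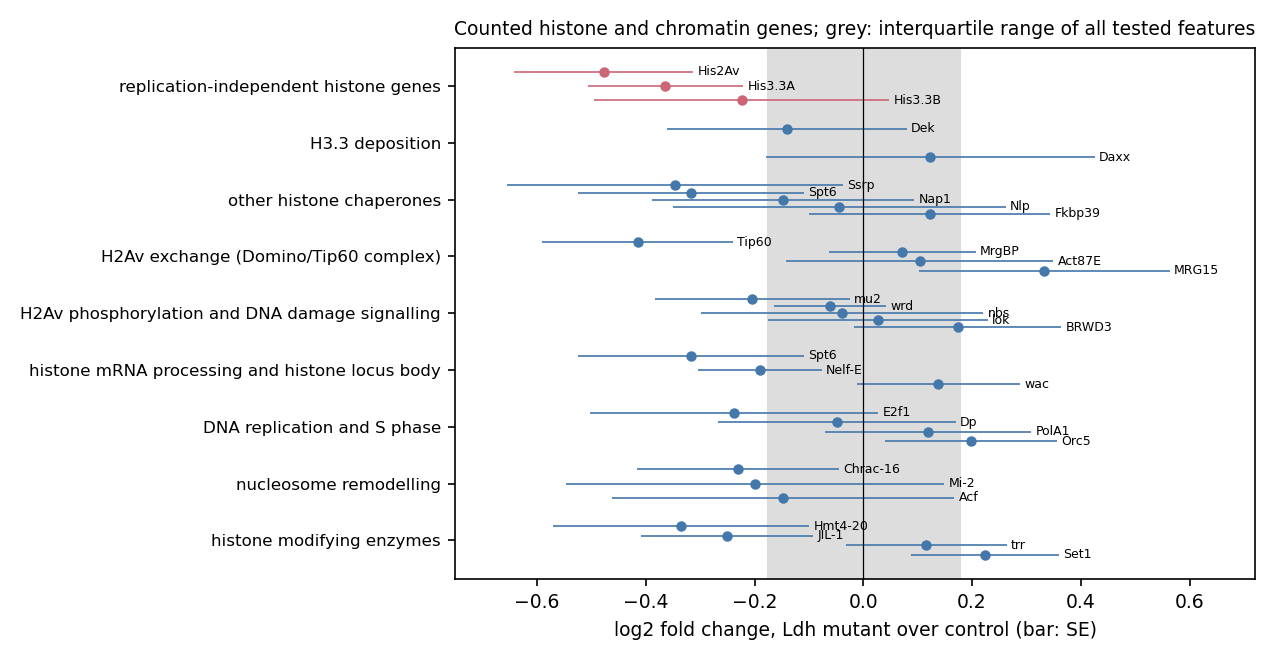
Log2 fold change (mutant over control) of each tested member of the fixed lists, with bars of 1 SE, below the 3 histone genes that passed the filter; the grey band is the interquartile range of all 2589 tested features, -0.18 to 0.18. The histone genes run from -0.48 to -0.22, and the list members from -0.41 (Tip60) to 0.33 (MRG15).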

How the data were processed

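The deposited files held raw read counts for each FlyBase gene identifier, which the authors had not normalized, with a file for each library. For these files the submitters' notes list HTSeq 0.6.1p1 as well as TopHat2 2.0.13 with Bowtie2 2.2.4, Trimmomatic 0.32, CASAVA and DESeq2. What build, annotation, library kit and strand setting were used is not given in the sources used here. The paper describes transcript quantification, another route, and heterozygous controls, so the labels were followed for the groups. The 5 summary lines of each file, which name no gene and held 98.4% to 98.8% of its counts, entered neither library sizes nor tests.

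Positions, exons and opposite-strand genes came from the BDGP6 annotation, release 115, which may differ from the one used for counting and placed 17151 of 17445 features. A gene on the other strand is named from 50 bp of exon overlap. Counts were fitted with edgeR 4.0.16 under R 4.3.3, by its quasi-likelihood test (default filter, TMM, no covariates, robust estimation off), with Benjamini-Hochberg adjustment over all features tested. Read ratios have exact conditional intervals. No libraries of a group were copies of each other by a chi-square test of their counts over features with at least 10 reads in a pair, and all 8 were kept.

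The members and the lists were chosen with earlier results of these data known. Named were the 5 members, genes on their other strand, the nearest gene on each side, Ldh, the called or at most 3 most counted tested members of each list, and the 3 closest profiles of each member that passed the filter; Tip60, cid, dom, Hira, yem, FLASH and the sperm proteins were named after their values were seen. In the lists 25 symbols, many of them alternative names, had no match. The pipeline was tested on simulated counts.

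Alternatives were other scalings (library totals, upper quartile, DESeq2 size factors), other filters (none, or 1 CPM in 4 libraries), other tools (limma-voom 3.58.1, DESeq2 1.42.0), robust estimation, a block on the replicate number, and the loss of each library in turn. The sum of His3.3A and Nepl3, the fit of features without an opposite-strand exon, and the 6 libraries of the block fitted without it were chosen after seeing the data.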

Additional observations from a re-analysis of the deposited data

Results flagged for a closer look

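Values of single libraries far from the rest of their group were sought with Dixon's criterion. It marked 5 of 40 sets of 4 values, where chance marks about 1 in 20. For the 5 histone genes together, control replicate 6 reached 357.4 CPM and the other controls 319.5 to 322.6. For asRNA:CR45163, a profile close to His3.3A, control replicate 5 was at 315.4 CPM against 265.3 to 267.5, and for CG15653, close to His3.3B, mutant replicate 2 had 110.0 CPM against 82.2 to 82.3. Of the depth measures, the share of counts assigned to features was 1.24% for control replicate 6 against 1.53% to 1.57%, and control replicate 5, the deepest, had 8016 features with a read against 7113 to 7209.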

How the results depend on the processing

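The log2 fold changes of His2Av, His3.3A and His3.3B stayed below 0, and that of Nepl3 above 0, under every alternative run. They ran from -0.52 to -0.48 for His2Av, -0.41 to -0.36 for His3.3A and -0.27 to -0.21 for His3.3B over scalings, filters and tools, and with single libraries left out from -0.59 to -0.37, -0.45 to -0.29 and -0.41 to -0.14. Summing the reads of His3.3A with those of Nepl3 moved the value to -0.016. In the fit of features without an opposite-strand exon, which tested 384, His2Av stood at -0.34 and His3.3B at -0.08 (SE 0.30), and 22 features were called. All of these runs refitted the counts by which the family was chosen, so a kept sign is no separate support. The sign also means little where a value is smaller than its SE, as for Nepl3 without control replicate 1 (0.15, SE 0.16).

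The 82 called features (40 higher, 42 lower in mutants) became 184 without a filter (113 higher), 101 with library totals (38 higher) and 57 to 164 with a library left out, the highest without mutant replicate 3. In the lists the 0 called became 1 without a filter, FLASH (opposite CG34312, CG34235 and CG30058), with 29 of its 31 mutant reads in mutant replicate 3. Groups shared the replicate numbers 1, 2 and 6, but same-numbered libraries did not deviate together (correlations of -0.11, 0.01 and -0.03 over 2589 features), so the numbers were not taken as a pairing. With the replicate block on those 6 libraries 138 features were called, and 118 on the same libraries without the block; His2Av was at -0.61 and -0.60, His3.3A at -0.38 and -0.37. The values of His4r and BigH1 are limited by their few reads, 5 and 4 in the series, and why so few were counted was not tested.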
